A study of Mus musculus with 4 samples.

Results

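Small RNA-seq of mouse ES cells and of the epiblast-like aggregates (ELA) derived from them was examined for 8 mature miRNAs that are known for their roles in the nervous system. These were mmu-miR-9-5p, mmu-miR-9-3p, mmu-miR-124-3p, mmu-miR-128-3p, mmu-miR-132-3p, mmu-miR-137-3p, mmu-miR-138-5p and mmu-miR-218-5p. They were chosen by name, as arms of 7 miRNAs, out of 1907 mature miRNAs listed in the table. The list was made with the values of these libraries known, so the levels are a description, and the adjusted p-values that a fit over all miRNAs gives for them are no independent evidence.

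The cells were of the E14Tg2A line, an established mouse ES cell line of 129/Ola origin, grown on gelatin without feeder cells. ES cells were kept with leukemia inhibitory factor (LIF) either in a medium with fetal calf serum ("serum") or in 2iL, a medium with LIF, the MEK inhibitor PD0325901 and the GSK3 inhibitor CHIR99021, which holds ES cells near the ground state of pluripotency. ELA were obtained by 2 days of culture as floating aggregates in a chemically defined minimal medium without LIF, so the medium in the name of an ELA library is the one its ES cells came from. The 4 libraries, ES serum, ELA serum, ES 2iL and ELA 2iL, are 1 for each combination, and each was made from the pooled RNA of 3 sets of experiments. Variation between experiments therefore cannot be measured, and all intervals below cover counting error in single libraries only.

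The libraries held between 587363 reads (ELA 2iL) and 8056984 reads (ES serum) on listed miRNAs, a ratio of 13.7. Values are RPM, reads of a miRNA scaled to an equal total of miRNA reads in every library, and are a share of the miRNA pool, not an amount per cell. In bulk RNA, fewer cells with a miRNA and less of it per cell cannot be told apart. A free-text label exchanges ES 2iL with ELA serum. The titles and column names were followed, and the summed level of the miR-302 and miR-367 markers of the primed epiblast was 67.6 RPM in the library titled ES 2iL against 32895 RPM in that titled ELA serum. Of 5 miRNA markers of pluripotent ES cells, 3 had more than 3 reads in each library, but mmu-miR-290a-3p and mmu-miR-292a-3p were listed at 0 in all 4, although they belong to a cluster that ES cells express strongly. A miRNA listed at 0 throughout is therefore not shown to be absent. Among miRNA markers of other cell types, the liver miRNA mmu-miR-122-5p was also listed at 0 in all libraries, the 2 blood miRNAs listed summed to between 2.09 and 3.41 RPM, and the 5 mesenchymal ones, 4 of them above 3 reads, to 3162 RPM in ES serum, 1475 in ELA serum, 4848 in ES 2iL and 1985 in ELA 2iL. Most of this sum was mmu-miR-143-3p (3102, 1451, 4729 and 1886 RPM in the same order), which like miR-124-3p and miR-128-3p below was highest in ES 2iL and lower in ELA in either medium. The same held for mmu-miR-145a-5p (11.9, 4.18, 60.4 and 35.8 RPM) and mmu-miR-199a-3p (30.2, 15.3, 44.1 and 37.5 RPM). For mmu-miR-199a-3p the interval of the change in 2iL included none. mmu-miR-199a-5p was highest in ELA 2iL (23.8 RPM on 14 reads, against 13.0 RPM in ES 2iL). The 3 muscle miRNAs summed to 11.5 RPM in ES serum, 48.5 in ELA serum, 0 in ES 2iL and 73.2 in ELA 2iL, and the 2 pancreatic ones to 102, 416, 11.9 and 550 RPM, all of it from mmu-miR-375-3p. Whether cells of other types contribute to the levels of the neural miRNAs was not tested.

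A miRNA is cut from a hairpin precursor that gives a 5p and a 3p arm, and the arm held by an Argonaute protein pairs with target mRNAs mainly through its seed, bases 2 to 8 from the 5′ end. In the developing nervous system, miR-9 acts in neural progenitors, where it restrains Nr2e1 and Hes1, and miR-124 is the most abundant miRNA of neurons, in which it lowers Ptbp1 and other non-neuronal mRNAs. The miR-128 and miR-132 miRNAs act on neuronal excitability and neurite growth, miR-137 on neural stem cells and dendrites, miR-138 on dendritic spines, and miR-218 in motor neurons.

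The mature sequences are shown because the seed decides which mRNAs a miRNA can pair with. They were looked up by name among RefSeq sequences (GRCm38.p6), where 7 of the 8 were found, and the capitals mark the seed. mmu-miR-124-3p was not found under its name, so its sequence and its hairpins are not shown. No pair among the 7 shared a seed.
mmu-miR-9-5p: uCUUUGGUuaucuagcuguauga
mmu-miR-9-3p: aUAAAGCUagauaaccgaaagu
mmu-miR-128-3p: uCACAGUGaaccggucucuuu
mmu-miR-132-3p: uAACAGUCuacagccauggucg
mmu-miR-137-3p: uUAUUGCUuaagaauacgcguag
mmu-miR-138-5p: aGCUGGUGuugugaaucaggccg
mmu-miR-218-5p: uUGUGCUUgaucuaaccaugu

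Several of these miRNAs come from more than 1 hairpin, and reads of an identical arm cannot be assigned to one of them. The positions are those of exact matches of the RefSeq hairpins in mm9 (NCBI37), and the gene context is that of GENCODE vM1. The 3 miR-9 hairpins lie in long non-coding RNA genes, Mir9-1 (chr3:88019520-88019608) in an intron of Gm3764, Mir9-2 (chr13:83878419-83878490) in an exon of C130071C03Rik and Mir9-3 (chr7:86650150-86650239) in an intron of AI854517, all on the plus strand. Mir128-1 (chr1:130098938-130099007, plus strand) lies in an intron of R3hdm1 and Mir128-2 (chr9:112021140-112021215, minus strand) in an intron of Arpp21. Mir218-1 (chr5:48615181-48615290, plus strand) lies in an intron of Slit2 and Mir218-2 (chr11:35430318-35430427, plus strand) in an intron of Slit3, genes of axon guidance ligands. Mir132 (chr11:74987184-74987249, plus strand) lies in an intron of the non-coding gene 1700016P03Rik. Mir137 (chr3:118136775-118136847), Mir138-1 (chr9:122591994-122592092) and Mir138-2 (chr8:96848211-96848281), all on the plus strand, lie between annotated genes. Each intronic or exonic hairpin has the strand of its host gene.

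Together the 8 miRNAs were a small part of the miRNA pool. They took 0.0742% of the reads in ES serum (exact binomial 95% interval 0.0723–0.0761), 0.0711% in ELA serum (0.0686–0.0736), 0.135% in ES 2iL (0.131–0.139) and 0.0712% in ELA 2iL (0.0645–0.0783). ES 2iL stood above the other libraries, whose intervals overlap. After removal of the 5 most abundant miRNAs from the totals the shares were 0.161%, 0.147%, 0.241% and 0.151%, with ES 2iL again the highest. No other scaling was applied to this sum. ES 2iL was also the highest library for 46.4% of the 302 miRNAs used as a reference below. Their median log2 difference between ES 2iL and ES serum was 0.44 on RPM. The make-up of this share differed between libraries. mmu-miR-9-5p gave 47.9% of the reads of the 8 miRNAs in ES serum but 11.6% in ES 2iL, whereas mmu-miR-138-5p gave 1.62% and 16.1%.

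mmu-miR-9-5p, the main arm of miR-9, was present at 356 RPM in ES serum (exact Poisson 95% interval 343–369), 246 in ELA serum (231–261), 156 in ES 2iL (142–172) and 217.9 in ELA 2iL (182–259). ES serum was the highest library and ES 2iL the lowest, and the intervals of the 2 ELA libraries overlapped. mmu-miR-9-3p, the other arm, had 67 reads (8.32 RPM) in ES serum, 25 (5.80 RPM) in ELA serum, 6 (2.17 RPM) in ES 2iL and 1 in ELA 2iL, so it was low in every library.

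mmu-miR-124-3p stood at 68.9 RPM in ES serum (63.3–74.9), 45.3 in ELA serum (39.1–52.1), 142 in ES 2iL (393 reads) and 44.3 in ELA 2iL (28.9–64.9). ES 2iL was the highest library, and the 2 ELA libraries had overlapping intervals. mmu-miR-128-3p stood at 225 RPM (214–235), 180 (168–193), 570 (542–599) and 284 (243–331) in ES serum, ELA serum, ES 2iL and ELA 2iL, again with ES 2iL on top. The lowest of its 4 levels was in ELA serum.

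mmu-miR-138-5p had the widest range. It was at 12.0 RPM in ES serum (9.76–14.7), 25.3 in ELA serum (20.8–30.5), 216 in ES 2iL (199–235) and 47.7 in ELA 2iL (31.7–68.9), and none of these intervals overlap. mmu-miR-218-5p was at 49.6 RPM in ES serum (44.9–54.8), 188 in ELA serum (176–202), 250 in ES 2iL (231–269) and 109 in ELA 2iL (83.9–139), also without overlap. Both were lowest in ES serum and highest in ES 2iL.

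mmu-miR-132-3p, which neurons raise on activity, was at 23.0 RPM in ES serum (19.8–26.5), 20.4 in ELA serum (16.4–25.2), 10.1 in ES 2iL (6.72–14.6) and 6.81 in ELA 2iL (1.86–17.4). The 2 serum libraries overlapped, as did the 2 libraries of the 2iL lineage, and the wide interval of ELA 2iL also reached that of ELA serum. mmu-miR-137-3p had 3 reads in ES 2iL (1.08 RPM) and was listed at 0 in the other libraries, in which 3 reads would have been 0.372 RPM (ES serum), 0.696 (ELA serum) and 5.11 (ELA 2iL). In ELA 2iL, 0 reads allow a level of up to 6.28 RPM (exact Poisson 95% interval). No fold is given for it.

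**Figure D1:**
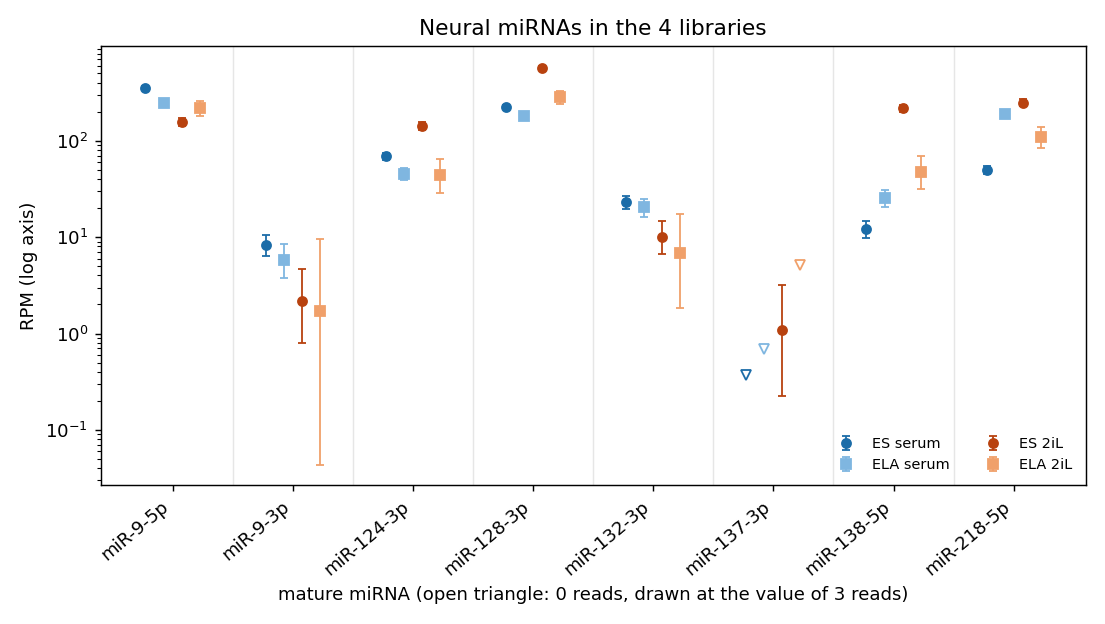
Level of the 8 neural miRNAs in the 4 libraries (RPM, log axis). Points are single libraries, bars are exact Poisson 95% intervals, and open triangles mark 0 reads at the value that 3 reads would have. mmu-miR-138-5p runs from 12.0 RPM in ES serum to 216 RPM in ES 2iL, while mmu-miR-9-5p stays between 156 and 356 RPM.

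The order of the levels changed with the library. All these RNAs are of nearly equal length, so RPM values of different miRNAs can be set side by side, although ligation and amplification also depend on the sequence. In ES serum the order was miR-9-5p, miR-128-3p, miR-124-3p, miR-218-5p, miR-132-3p, miR-138-5p and miR-9-3p, and the neighbours with overlapping intervals were the last pair. In ELA serum, miR-9-5p was followed by miR-218-5p and miR-128-3p, which overlapped, then by miR-124-3p, by miR-138-5p and miR-132-3p, which overlapped, and by miR-9-3p. In ES 2iL, miR-128-3p was first, and miR-218-5p with miR-138-5p and miR-9-5p with miR-124-3p formed overlapping pairs below it, above miR-132-3p, miR-9-3p and miR-137-3p, of which the last pair overlapped. In ELA 2iL, miR-128-3p and miR-9-5p overlapped at the top, miR-218-5p followed, miR-138-5p overlapped miR-124-3p, and miR-132-3p overlapped miR-9-3p. Among all miRNAs, mmu-miR-138-5p ranked 409 in ES serum and 162 in ES 2iL, while mmu-miR-9-5p ranked 125 and 194.

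For the comparisons, differences were taken on log2(RPM + 1), and a difference of at least 1 in size was counted. The reference was the set of 302 miRNAs whose log2(RPM + 1), averaged over the 4 libraries, reached 5, equal to 31 RPM. miR-9-5p, miR-124-3p, miR-128-3p, miR-138-5p and miR-218-5p belong to them, and the other 3 of the 8 (miR-9-3p, miR-132-3p and miR-137-3p) lie below this level. Each ratio of RPM carries a 95% interval computed exactly (Clopper-Pearson) from both read numbers.

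The ES–ELA transition from serum cells is the first step of neuralization of these cultures. mmu-miR-218-5p was 3.80-fold higher in ELA (3.36–4.29), a log2 difference of 1.90, and mmu-miR-138-5p was 2.10-fold higher (1.58–2.79), a log2 difference of 1.01 that only just reached the limit. The remaining abundant members were lower, miR-9-5p 1.45-fold (1.35–1.56), miR-124-3p 1.52-fold (1.29–1.80) and miR-128-3p 1.25-fold (1.15–1.36), and none of these reached a log2 difference of 1. miR-132-3p was at 0.889 times its ES level (0.682–1.15) and miR-9-3p differed by −0.45 on the log2 scale with an interval that included no change. Thus 2 of the 5 were higher by at least 1 and 0 were lower, where 8.61% of the 302 were higher and 15.6% lower. The 2 became 1 with a pseudocount of 5 RPM and with totals without the 5 most abundant miRNAs. The split of the 302, 26 higher and 47 lower on RPM, was 35 and 36 with DESeq2 size factors. The median log2 difference was −0.32 for the 5 and 0.00 for the 302.

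From 2iL cells, 4 of the 5 were lower in ELA by at least 1 and 0 were higher, where 23.5% of the 302 were lower and 18.9% higher. Without the 5 most abundant miRNAs in the totals, 2 of the 5 were lower. The split of the 302, 57 higher and 71 lower on RPM, was 66 and 57 with TMM, 64 and 61 with DESeq2 size factors and 74 and 50 without the 5 most abundant. mmu-miR-138-5p was 4.54-fold lower (3.11–6.89), mmu-miR-124-3p 3.21-fold lower (2.16–4.97), mmu-miR-218-5p 2.29-fold lower (1.77–3.01) and mmu-miR-128-3p 2.01-fold lower (1.71–2.37). The log2 difference of miR-128-3p, −1.002, lies at the limit itself, and it was −0.84 with TMM scaling. mmu-miR-9-5p was the exception and was 1.39-fold higher in ELA (1.13–1.70). miR-132-3p was at 0.673 times its ES level on 4 ELA reads (0.172–1.92). The median log2 difference was −1.19 for the 5 and −0.17 for the 302.

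Set side by side, miR-138-5p and miR-218-5p moved up from ES to ELA in serum and down in 2iL, miR-9-5p moved down in serum and up in 2iL, and ELA had less miR-124-3p and miR-128-3p in either medium. Opposite signs in the 2 media were found for 28.1% of the 302 miRNAs, and opposite signs with a size of at least 1 in both for 4 of them (1.32%), miR-138-5p and miR-218-5p included. With 1 library per combination, the difference between the media was not tested. Under TMM scaling, which matches the bulk of the miRNAs between libraries, the log2 differences in serum and 2iL were 1.05 and −1.99 for miR-138-5p and 1.93 and −1.03 for miR-218-5p. The signs held under each alternative, but the size of 1 in both media did not. With totals without the 5 most abundant miRNAs, miR-138-5p was at 0.97 in serum and miR-218-5p at −0.95 in 2iL, and with a pseudocount of 5 RPM miR-138-5p was at 0.83 in serum.

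**Figure D2:**
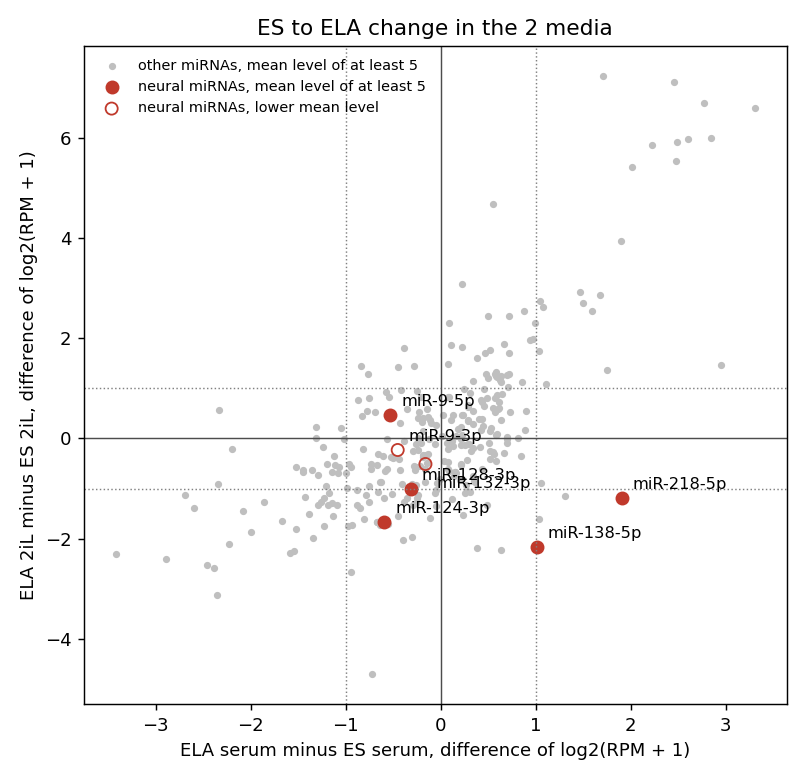
ELA minus ES difference of log2(RPM + 1) in serum (x axis) and in 2iL (y axis). Grey points are the 302 miRNAs with a mean level of at least 5, filled red points the 5 neural miRNAs among them, open red points miR-9-3p and miR-132-3p, and dotted lines a difference of 1. miR-138-5p (1.01 and −2.16) and miR-218-5p (1.90 and −1.19) lie in the lower right, apart from miR-9-5p (−0.53 and 0.48).

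ES cells in the ground state were compared with serum ES cells. In ES 2iL, mmu-miR-138-5p was 18.0-fold higher (14.5–22.5), mmu-miR-218-5p 5.03-fold (4.44–5.70), mmu-miR-128-3p 2.54-fold (2.37–2.72) and mmu-miR-124-3p 2.06-fold (1.81–2.35). mmu-miR-9-5p was 2.27-fold lower (2.05–2.52). Below the level limit, miR-132-3p was 2.27-fold lower (1.52–3.51) and miR-9-3p 3.83-fold lower on 6 reads (1.67–10.8), so both arms of miR-9 were lower. Hence 4 of the 5 were higher by at least 1 and 1 was lower, where 30.8% of the 302 were higher and 17.5% lower.

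The scaling matters here, because the median log2 difference of the 302 was 0.44 on RPM and −0.13 with TMM scaling, which also turned the split of the 302 from 93 higher and 53 lower to 46 and 81. With TMM scaling the log2 differences were 3.50 for miR-138-5p, 1.74 for miR-218-5p, 0.77 for miR-128-3p, 0.46 for miR-124-3p and −1.75 for miR-9-5p. The directions held, and miR-128-3p and miR-124-3p fell below the limit of 1.

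Most of these differences were smaller between the ELA libraries. mmu-miR-138-5p was 1.88-fold higher in ELA 2iL than in ELA serum (1.20–2.88) and miR-128-3p 1.58-fold higher (1.33–1.87). mmu-miR-218-5p was 1.73-fold lower (1.34–2.27), the opposite of its difference in ES cells, and this too was not tested. miR-124-3p was at 0.978 times its level in ELA serum (0.623–1.48) and miR-9-5p was 1.13-fold lower (0.937–1.36), both with intervals that included no difference. Of the 5, 0 were higher and 0 lower by at least 1, where 22.2% of the 302 were higher and 8.61% lower. miR-132-3p was 3.00-fold lower on 4 reads (1.13–11.2). With TMM scaling the split of the 302 went from 67 higher and 26 lower to 35 and 52, and the log2 difference went from 0.89 to 0.46 for miR-138-5p, from 0.66 to 0.22 for miR-128-3p, from −0.03 to −0.46 for miR-124-3p, from −0.17 to −0.61 for miR-9-5p and from −0.78 to −1.22 for miR-218-5p. The ratios above hold for RPM, and which of these differences is clear of counting error depends on the scaling.

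**Figure D3:**
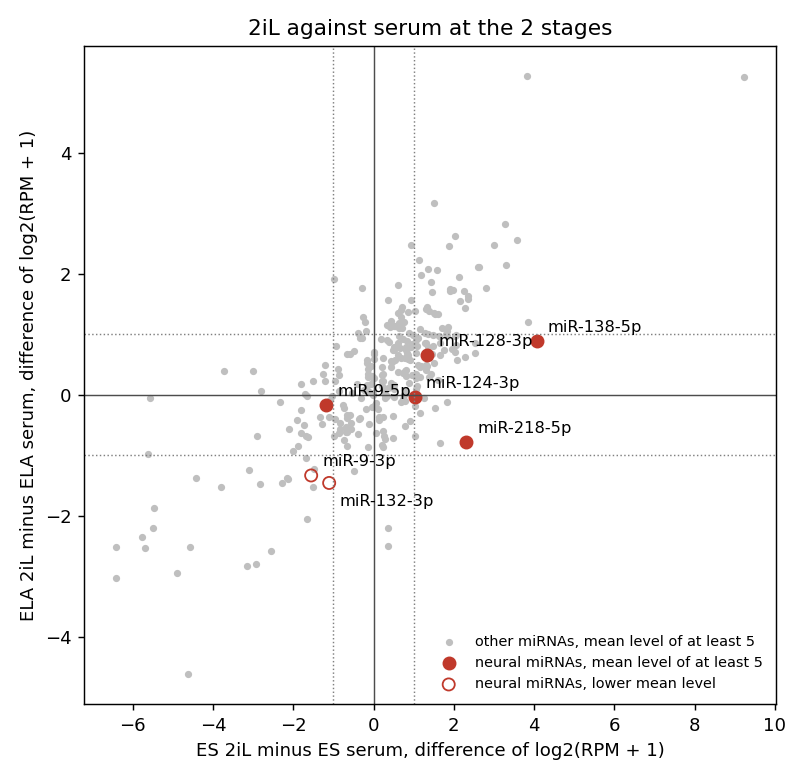
2iL minus serum difference of log2(RPM + 1) in ES cells (x axis) and in ELA (y axis), with symbols and lines for the 302 miRNAs and the neural miRNAs as explained in the legend. miR-138-5p lies far right (4.06 and 0.89), miR-218-5p right and below the zero line (2.31 and −0.78), and miR-132-3p (−1.11 and −1.46) and miR-9-3p (−1.56 and −1.33) are negative on both axes.

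A fit over all 4 libraries with stage and medium as terms asks for changes shared by both media or both stages and leaves 1 residual degree of freedom. limma on log2(RPM + 1) called 0 of 599 miRNAs for stage (0%) and 0 for medium (0%) at an adjusted p under 0.05, with 125 and 176 at an unadjusted p under 0.05. It covered 7 of the 8 neural miRNAs and called none of them. The 0 depends on the settings. With TMM scaling limma called 28 of 599 for stage and 55 for medium, none of them among the 7. With no filter on low values it called 99 of 1202 for stage and 130 for medium. The quasi-likelihood test of edgeR, run on read numbers with RPM totals, called 0 (0%) for stage, with 129 at an unadjusted p under 0.05, and 39 (6.51%) for medium. None of the 7 was among them, with an adjusted p of 0.125 for mmu-miR-138-5p between the media. With TMM scaling, an alternative chosen after seeing the data, it called 56 (9.35%) for stage and 89 (14.9%) for medium. Of the 7, it called none for stage and for medium mmu-miR-138-5p alone, at an adjusted p of 0.0436. The limma fit gave mmu-miR-138-5p a mean log2 difference of 2.47 between 2iL and serum, with an adjusted p of 0.146, and over the alternatives tried this p ran from 0.000478 (limma with no filter on low values) to 0.254 (limma with a pseudocount of 0.1 RPM). The fit with no filter covered 1202 miRNAs, including those with reads in a single library only, where the other fits covered 599.

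mmu-miR-138-5p and mmu-miR-218-5p shared the order of their extreme libraries. ES serum was the lowest and ES 2iL the highest for 37 of the 302 miRNAs (12.3%), these 2 included, and ES 2iL was the highest library for 140 (46.4%), among them 4 of the 5. miR-9-5p, highest in ES serum and lowest in ES 2iL, shared this order with 13 miRNAs in all (4.30%). The closest profiles were found by the Euclidean distance between levels of log2(RPM + 1), each centred on its mean over the 4 libraries. They are a description over 4 points that share depth and scaling.

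The nearest to miR-138-5p was mmu-miR-152-5p at a distance of 0.40, with 11.0, 23.7, 173 and 56.2 RPM in ES serum, ELA serum, ES 2iL and ELA 2iL, and then mmu-miR-26a-5p (1.11) and mmu-let-7a-5p (1.18). The nearest to miR-218-5p was mmu-miR-152-3p at 0.53, the other arm of the same miRNA, followed by mmu-miR-296-5p (0.64) and mmu-miR-872-5p (1.10). miR-128-3p had near neighbours in mmu-miR-32-5p (0.19), mmu-miR-99b-3p (0.22) and mmu-miR-26b-5p (0.23). miR-124-3p was close to mmu-miR-10b-5p (0.35), mmu-miR-27b-5p (0.35) and mmu-miR-708-3p (0.38), and miR-9-5p to mmu-miR-485-5p (0.31), mmu-miR-28a-3p (0.36) and mmu-miR-151-3p (0.42). Among themselves the 5 lay between 0.71 (miR-124-3p and miR-128-3p) and 3.82 (miR-9-5p and miR-138-5p) apart, where the median over all pairs of the 302 was 1.80. The 5 thus did not share a single profile.

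The arms not on the list were then examined. A ratio of 2 arms within a library does not depend on the scaling. The 5p arm of miR-9 made up 97.7%, 97.7%, 98.6% and 99.2% of miR-9 reads in ES serum, ELA serum, ES 2iL and ELA 2iL, a nearly constant share. miR-138 was also mostly 5p, from 90.8% in ELA serum to 100% of 28 reads in ELA 2iL, and so was miR-218, from 94.3% in ES 2iL to 98.5% in ELA 2iL. miR-132 was mostly 3p, with 16, 5, 8 and 2 reads on its 5p arm. mmu-miR-137-5p had no read.

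The arms of miR-128 did not keep their ratio. mmu-miR-128-1-5p, the 5p arm of the R3hdm1 hairpin (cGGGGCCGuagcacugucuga, seed in capitals), was at 164, 65.2, 87.5 and 88.5 RPM in ES serum, ELA serum, ES 2iL and ELA 2iL. Its highest library was ES serum, while that of the 3p arm was ES 2iL. The 5p share of miR-128 reads was 42.2% in ES serum (40.5–43.9), 26.9% in ELA serum (24.2–29.6), 13.3% in ES 2iL (11.8–14.9) and 23.7% in ELA 2iL (18.3–29.9). The log2 ratio of mmu-miR-128-1-5p to 3p reads was 2.25 lower in ES 2iL than in ES serum. Of 99 miRNA names with at least 10 reads on both arms in every library, 38.4% moved by at least 1 in that comparison. The ratio was 1.01 lower in ELA serum than in ES serum, where 9.09% of the 99 moved by at least 1, and 1.02 higher in ELA 2iL than in ES 2iL, where 26.3% did.

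Nearly all 5p reads of miR-128 were those of the first hairpin. mmu-miR-128-2-5p, the 5p arm of the Arpp21 hairpin, had 4 reads in ELA serum and none in the other libraries, so mmu-miR-128-1-5p made up 98.6% of both in ELA serum and 100% elsewhere. Which hairpin the shared 3p arm came from cannot be read from these values.

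mmu-miR-124-5p was at 11.2, 18.6, 21.7 and 8.51 RPM, and its share of miR-124 reads was 13.95% in ES serum (11.4–16.9), 29.1% in ELA serum (23.8–34.8), 13.2% in ES 2iL (10.3–16.7) and 16.1% in ELA 2iL (5.45–33.7). It was 1.66-fold higher in ELA serum than in ES serum (1.21–2.27), while the 3p arm was lower. The log2 ratio of 5p to 3p reads was 1.34 higher in ELA serum, where 9.09% of the 99 names moved by at least 1. Between the ELA libraries the log2 ratio of the arms was 1.09 lower in ELA 2iL, on 5 reads of the 5p arm there, and 31.3% of the 99 names moved by at least 1.

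The 3p arms of miR-218 differ between the 2 hairpins, so that their reads can be assigned to one or the other. They are printed because 18 of their 22 bases match when aligned, and because the shift of their ends gives them different seeds (capitals).
mmu-miR-218-1-3p: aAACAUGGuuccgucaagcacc
mmu-miR-218-2-3p: cAUGGUUCugucaagcaccgcg
mmu-miR-218-1-3p, from the Slit2 intron, had 6 reads in ES serum, 0 in ELA serum, 35 in ES 2iL (12.6 RPM) and 0 in ELA 2iL. mmu-miR-218-2-3p, from the Slit3 intron, had 1, 14, 7 and 1. The first hairpin thus gave 85.7% of these reads in ES serum (42.1–99.6) and 83.3% in ES 2iL (68.6–93.0), but 0 of 14 in ELA serum (upper bound 23.2%). mmu-miR-218-1-3p was 17.0-fold higher in ES 2iL than in ES serum (7.07–49.4) and, with 35 reads against 0, at least 2.48-fold lower in ELA 2iL than in ES 2iL if 3 reads are taken as the floor. The exact interval of that ratio starts at 1.91-fold. mmu-miR-218-2-3p was also higher in ES 2iL than in ES serum, 20.4-fold on 7 reads against 1 (2.62–919). In ELA serum it was 26.2-fold higher than in ES serum, on 14 reads against 1 (3.98–1107). In ELA 2iL, 1 read for both arms tells nothing of the origin. The number of reads is small, and how reads matching more than 1 place were counted is not given in the sources used here.

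**Figure D4:**
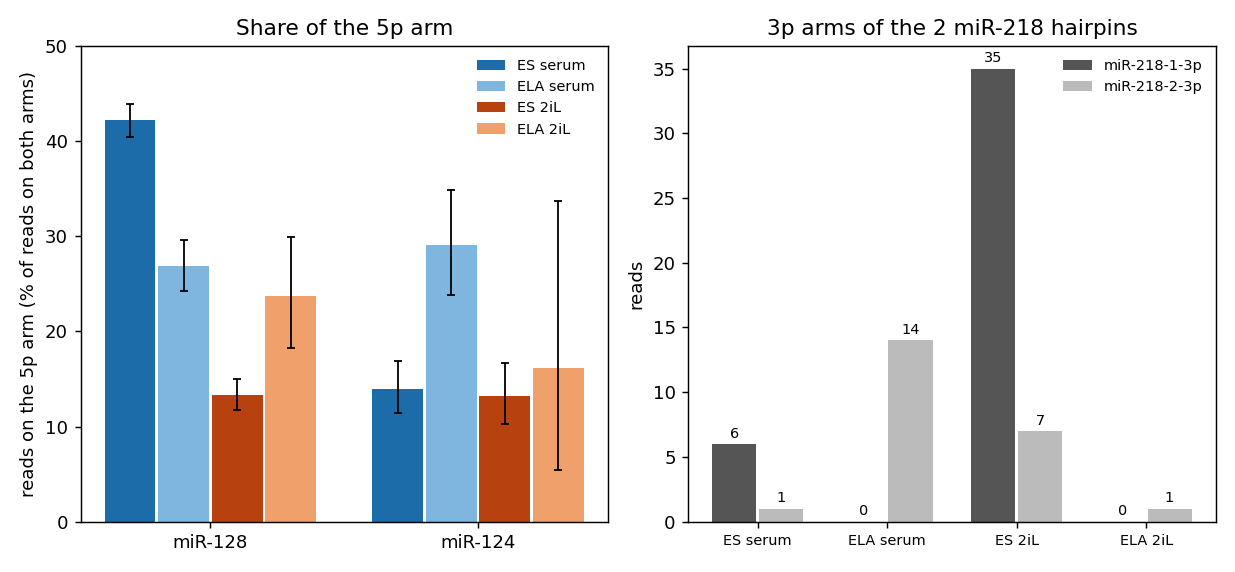
Left, share of the 5p arm in the reads of miR-128 and miR-124 in each library (%, bars with exact binomial 95% intervals). Right, reads of the 3p arms of the 2 miR-218 hairpins in each library. The miR-128 share falls from 42.2% in ES serum to 13.3% in ES 2iL. The 3p-arm reads of miR-218 in ES cells are mostly miR-218-1-3p, whereas the 14 in ELA serum are all miR-218-2-3p.

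Mir212 (chr11:74986890-74986980, plus strand) lies 203 bp from Mir132 in the same intron of 1700016P03Rik, and its 3p arm carries the seed of miR-132-3p, with 17 of 22 bases alike.
mmu-miR-212-3p: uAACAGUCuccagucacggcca
mmu-miR-212-3p was at 16.0, 12.3, 2.53 and 3.41 RPM in ES serum, ELA serum, ES 2iL and ELA 2iL, and mmu-miR-212-5p at 77.4, 50.4, 2.53 and 8.51. Both were lower in ES 2iL than in ES serum, 6.33-fold (2.99–16.1) and 30.6-fold (14.8–76.5), as was miR-132-3p. In ELA 2iL, miR-212-5p was 5.92-fold lower than in ELA serum (2.50–18.4), and for miR-212-3p the interval of the 3.61-fold ratio reached from 0.952 to 30.6. Of the other miRNAs that could be matched to a sequence, mmu-miR-7002-3p alone also had the seed of one of the 7 with a sequence. It shares that of miR-218-5p and had 0.248 RPM in ES serum and none elsewhere.

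Beyond the 8, a list of 20 other miRNAs enriched in brain was examined. Of these, 4 (mmu-miR-129-2-3p, mmu-miR-219a-5p, mmu-miR-338-3p and mmu-miR-873a-5p) were listed at 0 in all libraries, which, as for mmu-miR-290a-3p, does not show absence. The same held for 705 of all 1907 miRNAs. More than 3 reads were found for 15 in ES serum, 15 in ELA serum, 14 in ES 2iL and 11 in ELA 2iL. These counts follow depth, since 3 reads are 0.372 RPM in ES serum but 5.11 RPM in ELA 2iL. Over all 1907 miRNAs, any read was found for 1034, 930, 969 and 691 in the same order. A mean log2(RPM + 1) of at least 3 was reached by 11 of the 20 and by 466 miRNAs in all. Of the 11, 3 were higher by at least 1 and 0 lower in ELA from serum, where 8.8% of the 466 were higher and 17% lower. In ELA from 2iL, 5 were higher and 2 lower, where 19.7% and 26% of the 466 were. The 5 include mmu-miR-212-5p on 5 reads against 7 and the 2 include mmu-miR-598-3p on 1 read against 23, both with intervals that include no change. In ES 2iL against ES serum, 2 were higher and 4 lower (31.3% and 18.5% of the 466), and in ELA 2iL against ELA serum 1 was higher and 3 were lower (24% and 9.87%).

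A mean level of at least 5 was reached by 3 of the 20, of which 1 was higher and 1 lower by at least 1 in ELA from 2iL (18.9% and 23.5% of the 302), and 0 either way in ELA from serum (8.61% and 15.6%). mmu-miR-7a-5p, abundant in neuroendocrine cells and brain, was at 459, 267, 290 and 427 RPM in ES serum, ELA serum, ES 2iL and ELA 2iL, lower in ELA from serum and higher in ELA from 2iL like miR-9-5p. mmu-miR-149-5p was at 126, 159, 51.0 and 114 RPM, with ES 2iL the lowest. mmu-miR-328-3p was at 24.1, 19.3, 143 and 35.8 RPM, with ES 2iL 5.94-fold above ES serum (4.99–7.09) and 4.003-fold above ELA 2iL (2.58–6.54).

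**Figure D5:**
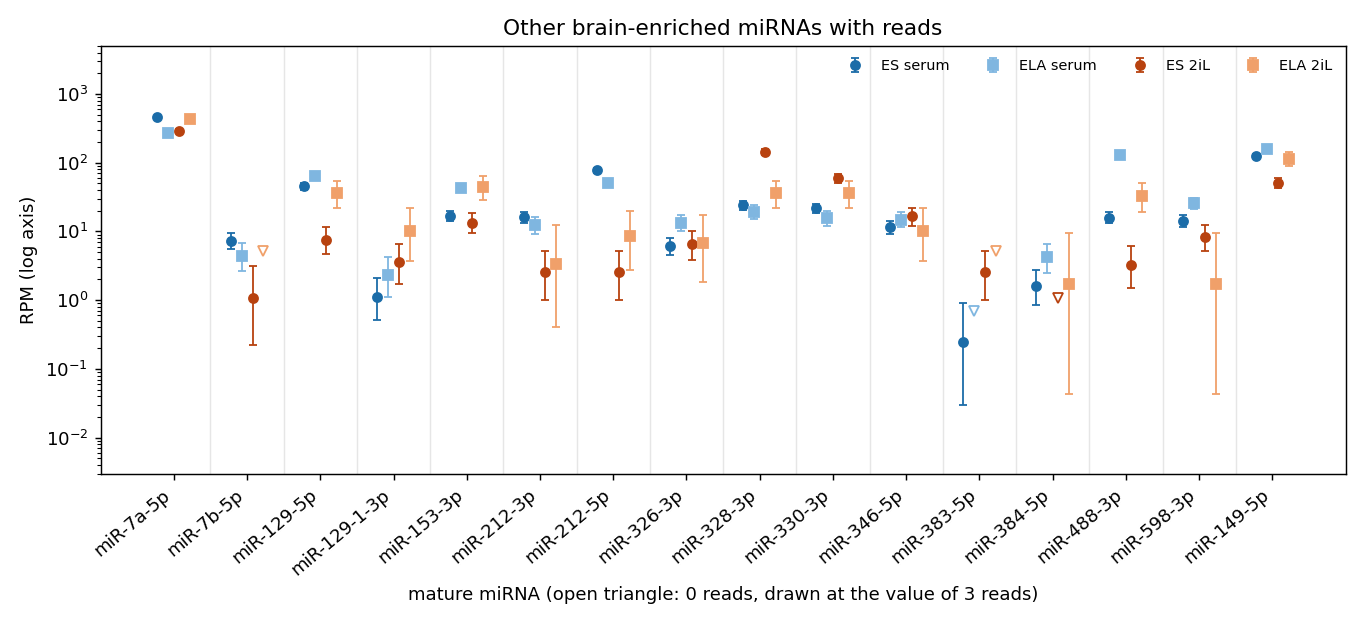
Level of the 16 other brain-enriched miRNAs that had reads, in the 4 libraries (RPM, log axis, exact Poisson 95% intervals, open triangles for 0 reads at the value of 3 reads). mmu-miR-7a-5p is the most abundant, at 267 to 459 RPM, and mmu-miR-488-3p is higher in each ELA library than in the ES library of the same medium.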

How the data were processed

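Small RNA libraries (TruSeq Small RNA kit) were sequenced in 50 bp single reads on a miSeq (chemistry v3). The authors demultiplexed with CASAVA 1.8, trimmed adaptors with Trimmomatic, mapped reads to NCBI37/mm9 with Bowtie, used featureCounts to assign them to miRNAs (miRBase release 20), and deposited RPM values. The other tools' versions and settings are not given in the sources used here. Every value was a whole multiple of that of 1 read (100% of values, tolerance 0.01), which gave back read numbers. Differences used log2(RPM + 1), with a pseudocount of 1 RPM that understates changes of low miRNAs. The members and lists were chosen with earlier results of these data known. Named miRNAs were the 8 members, their other arms, brain-enriched miRNAs with a mean of at least 5, and the 3 nearest profiles of each member at that mean. The miR-212 arms, miR-488-3p, miR-153-3p, miR-129-5p, miR-598-3p, miR-7002-3p and the 4 brain-enriched miRNAs listed at 0 fall outside this rule and were named after their values were seen. Cell type markers had a list of their own. limma 3.58.1 and edgeR 4.0.16 (R 4.3.3) were run on 599 miRNAs that reached 10 reads in 2 or more libraries, after tests on simulated data, and DESeq2 1.42.0 gave size factors. The planned test was limma on log2(RPM + 1), with edgeR in its place if the values were counts. The values are RPM, so limma was used, and edgeR on the recovered reads is an alternative. 0 columns of samples were left out.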

Additional observations from a re-analysis of the deposited data

Results flagged for a closer look

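The ELA minus ES difference of log2(RPM + 1) was compared between serum and 2iL for 16 miRNAs, namely 7 of the 8 neural miRNAs (without miR-137-3p), mmu-miR-124-5p, mmu-miR-128-1-5p, both arms of miR-212 and 5 other brain-enriched miRNAs. It had opposite signs in 8 of them. These 16 are no fair sample, since 7 lie below a mean level of 5 and several were named after their values were seen. Opposite signs were found for 28.1% of the 302 miRNAs with a mean level of at least 5, for 28.3% of the 466 with one of at least 3, and for 4 of the 11 other brain-enriched miRNAs at that level (36.4%). Arms with fewer reads were not counted. With 1 library per combination, none of these differences between the media was tested. The change in 2iL less that in serum was 1.01 for mmu-miR-9-5p (−0.53 in serum, 0.48 in 2iL), −3.17 for mmu-miR-138-5p (1.01, then −2.16), −3.09 for mmu-miR-218-5p (1.90, then −1.19), −1.94 for mmu-miR-124-5p (0.68 and −1.25) and 1.34 for mmu-miR-7a-5p (−0.78 and 0.56). In these 5 the counting interval excluded no change in each medium. It was 1.33 for mmu-miR-128-1-5p (−1.32 and 0.02) and 2.04 for mmu-miR-212-5p (−0.61 and 1.43), of which the 2iL change had an interval that included none. For mmu-miR-212-3p it was 0.67 (−0.36 and 0.32), with no clear change in either medium.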

How the results depend on the processing

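Of the 64 differences recomputed (16 miRNAs, 4 comparisons), none of at least 1 changed sign under the alternatives. Among smaller ones, the sign changed for mmu-miR-132-3p in ELA from serum (−0.16, and 0.03 with DESeq2 size factors) and, between ELA 2iL and ELA serum, for mmu-miR-124-3p, mmu-miR-128-1-5p and mmu-miR-153-3p. The members higher by at least 1 in ELA from serum were 1, not 2, with a pseudocount of 5 RPM and with totals without the 5 most abundant miRNAs. Those lower in ELA from 2iL were 2, not 4, without the 5 most abundant. Those higher in ES 2iL than ES serum were 2, not 4, with TMM and with DESeq2 size factors, and those lower in ELA 2iL than ELA serum 1, not 0, with either. A mean level of 3 (466 miRNAs, 6 members) admits more miRNAs and gave 2 members lower in ES 2iL and 1 lower in ELA 2iL. It gave 41 miRNAs higher and 79 lower in ELA from serum, 92 and 121 from 2iL, 146 and 86 for ES 2iL against serum, and 112 and 46 for ELA. For other brain-enriched miRNAs it gave 3 higher in serum, 5 higher and 2 lower in 2iL, 2 higher and 4 lower in ES 2iL, and 1 higher and 3 lower in ELA 2iL. With TMM, all expressed miRNAs split 46 higher and 81 lower in ES cells and 35 and 52 in ELA. DESeq2 size factors gave 57 higher and 74 lower in ES cells and 32 and 55 in ELA. Either scaling left 2 other brain-enriched miRNAs lower in ES 2iL. limma called 0 for stage and medium. It called 99 and 130 of 1202 with no filter (mmu-miR-138-5p among those for medium, adjusted p 0.000478), and 28 and 55 of 599 with TMM. The 1202 include miRNAs with reads in a single library only. edgeR called 0 and 39 on RPM totals and 56 and 89 with TMM, an alternative chosen after seeing the data. For these moves the cause was not tested, except where an alternative admits more miRNAs. Of the 64, 0 moved beyond their counting interval with a pseudocount of 0.1 RPM, 4 with 5 RPM, 15 with TMM, 20 with DESeq2 size factors and 11 without the 5 most abundant. The ELA 2iL depth of 587363 reads sets the widest intervals. No paired analysis was possible because each group has 1 library and no replicate numbers to pair, although the limma and edgeR fits do compare the stages within each medium. Leaving out a library leaves no second one of its group.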

Other observations

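Of the other brain-enriched miRNAs, 2 were singled out after their values were seen, because they were higher in ELA by at least 1 on the log2 scale in both media, as were 6.87% of the 466 miRNAs with a mean level of at least 3 and none of the 5 abundant neural miRNAs. mmu-miR-488-3p, from an intron of the neuronal gene Astn1, had 15.9 RPM in ES serum, 553 reads in ELA serum, 3.25 RPM (9 reads) in ES 2iL and 32.3 RPM (19 reads) in ELA 2iL. It was 8.08-fold higher in ELA from serum (6.65–9.87) and 9.95-fold higher in ELA from 2iL (4.29–24.96). mmu-miR-153-3p stood at 17.0, 42.9, 13.4 and 44.3 RPM in ES serum, ELA serum, ES 2iL and ELA 2iL, 2.52-fold higher in ELA from serum (2.01–3.17) and 3.31-fold higher from 2iL (1.92–5.62). mmu-miR-129-5p and mmu-miR-149-5p were also higher in ELA in both media, by less than 1 on the log2 scale in serum, 1.40-fold (1.19–1.64) and 1.27-fold (1.15–1.396) there, and 4.71-fold (2.45–9.07) and 2.24-fold (1.65–3.01) from 2iL. The intervals cover counting error only, and a difference that held between experiments was not tested.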
